A study of Rattus norvegicus with 35 samples.

Results

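The proteasome genes of the array were followed in the olfactory epithelium of newborn, adult and old rats. Members were chosen by name alone, as every non-control probe whose gene name on the array begins with Psma, Psmb, Psmc, Psmd, Psme, Psmf or Psmg. The rule found 50 probes of 42 genes among 41012 probes of 35581 names, and no probe was named for Psmf1 or for a Psmg gene. They are Psma1 to Psma7 and Psma3l, Psmb1 to Psmb10, Psmc1 to Psmc6, Psmd1 to Psmd13, Psme1 to Psme4, and Psmc3ip. The last shares only its first letters with the family, because it encodes a partner of Psmc3 that acts in meiotic recombination and is not a proteasome subunit.

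The proteasome is the protease that degrades proteins tagged with ubiquitin in the cytosol and the nucleus. Its 20S core is a barrel of stacked rings, with alpha subunits (the Psma genes) guarding the entrance and beta subunits (the Psmb genes) forming the inner chamber, where Psmb5, Psmb6 and Psmb7 carry the active sites. The 19S cap, made of ATPases (the Psmc genes) and other subunits (the Psmd genes), binds ubiquitinated proteins and unfolds them. Interferon and immune cells call up Psmb8, Psmb9 and Psmb10, which replace Psmb5, Psmb6 and Psmb7 in newly built cores to give the immunoproteasome, a form known for making peptides that fit class I molecules of the major histocompatibility complex. In the olfactory epithelium, sensory neurons are replaced throughout life and immune cells patrol a surface open to the air.

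The animals were Brown Norway rats. The newborn group held 19 pups of 3 to 5 days from 4 litters, with 4 pups in L1 and 5 in each of L2, L3 and L4, bought with their mothers, and RNA came from 1 side of each nose. The adult group held 4 males of 9 weeks (rats 13 to 16) and the old group 4 males of 22 months (rats 17 to 20), kept in the animal house from weaning age, and both sides of their noses were hybridized, which makes 35 arrays from 27 rats. The sex of the pups was not given. Labelled RNA was read with 1 dye, Cy3, on Agilent whole rat genome arrays of 60-base probes. A level here is the log2 of a probe's background-subtracted intensity over the median of its array, with the 2 sides of an adult or old rat averaged so that the rat is the replicate, and a change is a difference of such levels. A call is an adjusted p under 0.01 in a limma fit over the 23668 probes detected in every age group and litter. All 50 proteasome probes were among them, and 49 were above background on all 35 arrays. The exception was Psmd11, a subunit of the 19S lid, which passed on 34. A pass also required a spot that was neither saturated nor flagged as uneven, and Psmd11 read 5.35 to 6.35 over the rats. Levels of different probes are not compared, since probes differ in brightness.

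The median intensity was 42.1 to 87.7 on the newborn arrays, 81.6 to 162 on the adult arrays and 37.1 to 55.3 on the old arrays. Adult arrays were scanned on days of their own with an earlier release of the scanner software, L1 on the same day as the old rats, and L2 to L4 on later days, so that adult age and scan day cannot be told apart. In whole tissue, fewer cells of a type and less RNA per cell cannot be told apart either. The 5 measured markers of mature olfactory neurons were above background in all groups, and all 5 were lower in newborn than in adult and old rats, with median changes of -2.24 and -2.92. The 4 markers of sustentacular cells tested were lower in newborn rats in both comparisons, and the 7 of dividing cells were higher in both. Of 4 markers of basal cells, 3 were higher in newborn rats in both comparisons. The single muscle marker tested, and both red cell markers, were higher in newborn rats than in adults.

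The question put to the members was how their RNA differed between ages. With each array scaled to its median, most of the proteasome family stood lowest in adult rats. The counts behind this changed with the scaling, as given below. Of the 50 probes, 37 were called higher and none lower in newborn than in adult rats, where 39.7% of all probes were called higher and 26.7% lower. The median change was 0.62 over the members and 0.15 over all probes. Between adult and old rats, 31 members were called lower in adults and 6 higher, against 31.4% and 15.9% of all probes, with a median change of -0.52 against -0.18. Newborn and old rats lay closer together. There, 24 members were called higher in newborn rats and 4 lower, against 28.4% and 31.5% of all probes, with a median change of 0.22 against -0.03. Pups of a litter are not independent, and when each litter counted as 1 replicate, 11 members were called higher and none lower, against 20.9% and 25.6% of all probes. The 3 comparisons share their rats and are not independent of each other. Psmc3ip is counted among the members. Without it, 36, 23 and 6 of 49 probes were called higher and 0, 4 and 30 lower in the same 3 comparisons.

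**Figure D1:**
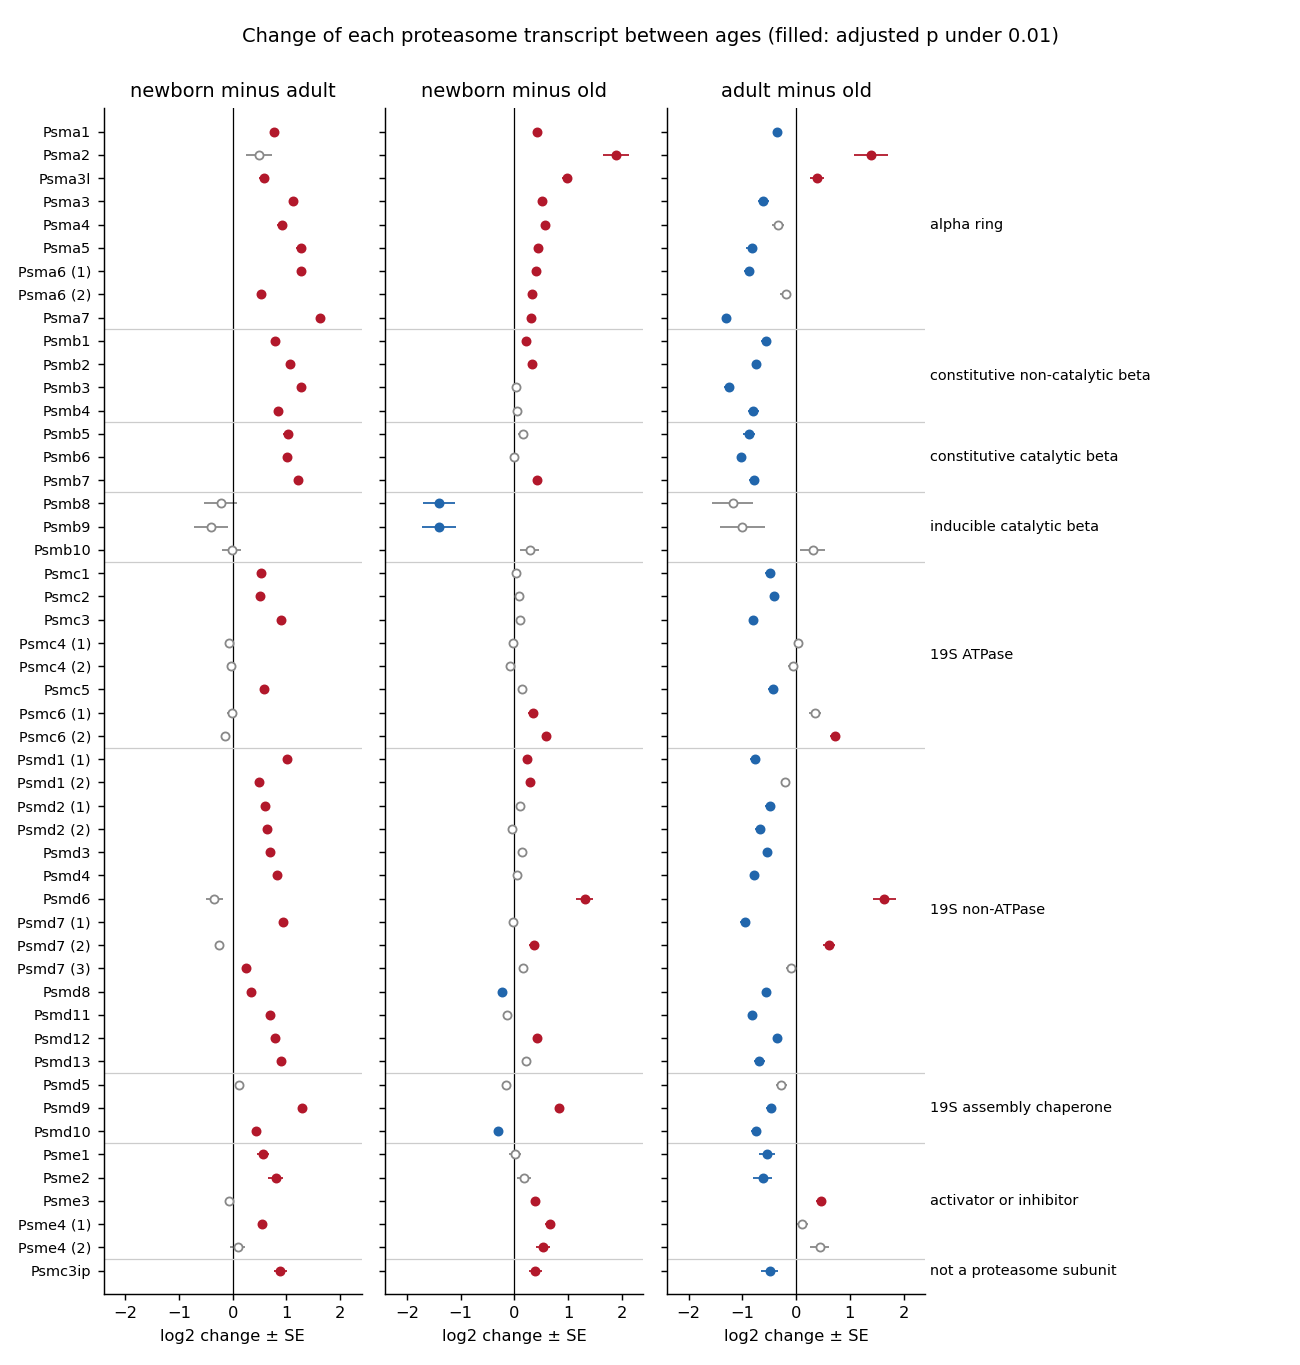
Change of each of the 50 proteasome probes between ages, in log2 units on the horizontal axis, with genes grouped by their place in the proteasome; points are changes, bars are standard errors from limma, filled points passed an adjusted p of 0.01 (red higher in the first group, blue lower), and numbers in parentheses separate probes of the same gene. Psmb1 to Psmb7 lie to the right of 0 in newborn minus adult and to the left in adult minus old, Psma2 lies at 1.40 in adult minus old, and Psmb8 and Psmb9 lie at -1.41 and -1.40 in newborn minus old.

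The counts against adult rats depended on how arrays were scaled. When the arrays were given the same distribution (quantile normalization), the median change of all probes between newborn and adult rats moved from 0.15 to -0.03, and 25 members were called higher and 11 lower. Of all probes, 31.6% were then called higher and 35.2% lower. Relative to the median of all probes, the members' median change was 0.46 with the array median, 0.46 with the 75th percentile, 0.23 with quantile normalization and 0.29 with quantile normalization after normexp background correction. In adult against old rats the same relative change was -0.34, -0.34, -0.09 and -0.04, and the calls went from 6 higher and 31 lower to 15 of each with quantile normalization and to 13 and 16 after normexp. The shares of all probes called higher and lower were 22.9% and 22.6% with quantile normalization and 22.5% and 23.5% after normexp. The newborn against old comparison moved less, with 0.25, 0.25, 0.25 and 0.22 and with 22 to 25 members called higher and 4 to 6 lower over the 4 scalings. Over the same scalings, 26.6% to 28.4% of all probes were called higher and 31.5% to 36.0% lower.

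**Figure D2:**
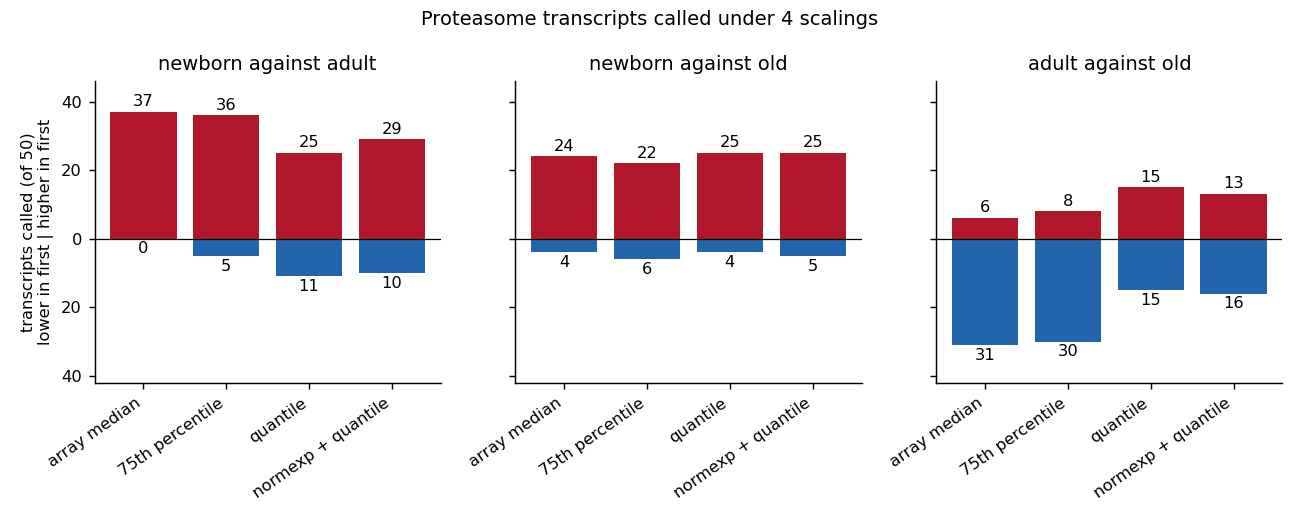
Number of the 50 proteasome probes called higher (red, above 0) and lower (blue, below 0) in the first group of each comparison, under 4 ways of scaling the arrays. In newborn against adult rats the bars go from 37 higher and 0 lower with the array median to 25 and 11 with quantile normalization, and in newborn against old rats they stay between 22 and 25 higher and 4 and 6 lower.

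Every pup read above every adult rat at 26 of the 50 probes and below at none, where 24.0% of all probes tested had every pup above and 15.0% every pup below. Every adult read below every old rat at 31 probes and above at 6, against 38.3% and 19.0% of all probes. Every pup lay above every old rat at 5 probes and below at 1, Psmb9, against 14.2% and 17.4%. The sides of a nose differed little: the median absolute difference between sides over the members was 0.073 for adults and 0.061 for old rats.

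The alpha ring shapes the entrance of the core and recruits the caps. In the mean of the 4 litters it was higher than at both other ages. All 9 of its probes were called higher than in old rats, with a median change of 0.44. Against adult rats, 8 of 9 were called higher, with a median of 0.91. Within the scan day that L1 shares with the old rats, none of the 9 was called, with a median of 0.14. Quantile normalization gave 4 calls there, all higher, with a median of 0.33. L1 had the lowest litter mean at each of the 9, and L2 to L4 were scanned on later days. Calls against old rats lost with litter means as replicates included those of Psma2 and 1 probe of Psma6. Against old rats, adult rats were called lower at 5 of the 9 and higher at 2, but at 3 and 3 with quantile normalization, where the median turned from -0.35 to 0.16. In newborn against adult rats that scaling left 4 of the 9 called, with a median of 0.40. Psma7 had the largest change of any member between newborn and adult rats. Its level was 9.18, 9.40 and 9.61 at the lowest, median and highest pup, then 7.76, 7.73, 7.97 and 7.72 in the adult rats and 9.04, 9.13, 9.08 and 9.15 in the old rats. No pup and no old rat came near the adult values, and pups overlapped none of the old rats. The change was 1.62 ± 0.06 (SE) in newborn minus adult, a ratio of 3.07, with an adjusted p of 1.1e-16, and it was 0.31 ± 0.06 against old rats with an adjusted p of 9.8e-05. Psma5 (1.26 ± 0.08), Psma3 (1.13 ± 0.08) and Psma4 (0.91 ± 0.08) were also called higher in newborn than in adult rats. Psma3l, whose name marks it as a Psma3-like gene, was 0.98 ± 0.10 higher in newborn than in old rats, with an adjusted p of 2.7e-09. It was also 0.39 ± 0.12 higher in adult than in old rats, although that call was lost when any 1 of 12 rats was left out, with adjusted p of 0.0017 to 0.051 over the 27 rats left out in turn.

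Psma2 stood apart within the ring. It gave the largest change of any member between newborn and old rats, 1.89 ± 0.24 with an adjusted p of 2.7e-07, and it was 1.40 ± 0.31 higher in adult than in old rats. Its 4 pups of L1 read 0.21, -0.26, -0.81 and -1.04. Values were 3.16 to 3.56 for L2, 2.30 to 3.07 for L3 and 2.32 to 3.01 for L4, while adult rats 13 to 16 read 2.34, 2.28, 0.69 and 0.81 and old rats 0.27, -0.18, 0.44 and 0.00. L1 therefore lay near or below the old rats and below every other litter, and the adult rats split into 2 higher and 2 lower values. The split matched slide and scan day, with rats 13 and 14 on slide 2 and day 2 and rats 15 and 16 on slide 1 and day 1. With litter means as replicates both calls were lost, with adjusted p of 0.027 and 0.090, and so they were with the methods' t-test on rats. Within the scan day that L1 shares with the old rats, the change was -0.61 ± 0.31, with an adjusted p of 0.098.

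The beta subunits without active sites, Psmb1 to Psmb4, complete the inner rings. All 4 were called higher in newborn than in adult rats, by 0.79 to 1.28, and all 4 were called lower in adult than in old rats, by -1.24 to -0.56. With quantile normalization the counts were 4 and 3 of 4, in the same directions. Only Psmb1 and Psmb2 were called in the mean of the 4 litters against old rats, at 0.22 ± 0.07 and 0.32 ± 0.06. In L1 against old rats, scanned on the same day, 2 of the 4 were called lower and none higher, with a median of -0.22. Of all probes, 30.6% were called lower there. At Psmb1 every L1 pup read below every old rat, and its litter mean was 6.25 in L1 and 6.85 to 7.03 in the others. Psmb3 had the largest changes of the 4. It read 8.79, 9.05 and 9.32 at the lowest, median and highest pup, 7.81, 7.70, 7.86 and 7.75 in adult rats and 8.97, 9.09, 8.94 and 9.09 in old rats. Old rats thus lay within the range of the pups and the adult rats below both. Its change was 1.28 ± 0.07 in newborn minus adult (adjusted p 7.5e-14) and -1.24 ± 0.09 in adult minus old (adjusted p 1.1e-10). Both were called in all 41 alternative settings, with values from 0.65 to 1.31 and from -1.27 to -0.66.

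The constitutive catalytic subunits were lowest in adult rats in all 3 cases. Psmb5, the chymotrypsin-like subunit, read 8.39, 8.69 and 9.01 at the lowest, median and highest pup, 7.57, 7.48, 7.82 and 7.79 in adult rats and 8.55, 8.55, 8.42 and 8.63 in old rats. Psmb6, the caspase-like subunit, read 7.76, 7.88 and 8.06 in pups, 6.83, 6.83, 6.97 and 6.85 in adult rats and 7.83, 7.92, 7.84 and 8.02 in old rats. For Psmb7, the trypsin-like subunit, the pups were at 6.81, 7.59 and 7.83, the adult rats at 6.27, 6.22, 6.32 and 6.14 and the old rats at 6.99, 7.0, 6.96 and 7.17. No adult rat overlapped a pup or an old rat at any of the 3 probes. The changes in newborn minus adult were 1.03 ± 0.09 for Psmb5, 1.02 ± 0.06 for Psmb6 and 1.22 ± 0.06 for Psmb7, ratios of 2.04, 2.03 and 2.33, with adjusted p of 1.4e-10, 7.0e-14 and 6.6e-15. With quantile normalization all 3 were still called in both comparisons with adult rats. In newborn minus adult all 3 were called in each of the 41 alternatives, with lowest values of 0.43, 0.39 and 0.61. In adult minus old they were -0.87 ± 0.11, -1.03 ± 0.07 and -0.79 ± 0.08, called in 41, 41 and 40 of the alternatives. The exception was Psmb7 after normexp correction, at -0.21 with an adjusted p of 0.045. Against old rats, newborn rats differed by 0.16 ± 0.09 at Psmb5 and by -0.01 ± 0.06 at Psmb6, neither of them called, and by 0.42 ± 0.06 at Psmb7 (adjusted p 1.0e-06). The call of Psmb7 was lost with litter means as replicates (adjusted p 0.023) and with the methods' t-test on rats (adjusted p 0.018). Its litter mean was 6.93 in L1 and 7.59 to 7.67 in the other litters. Dividing cell markers, summed over 7 genes as ratios to the array median, were 359 to 624 in pups, 92.0 to 124 in adult rats and 67.2 to 80.8 in old rats. Their part in the differences between ages was not tested.

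Psmb8, Psmb9 and Psmb10, the inducible catalytic subunits, followed another order. Psmb8, which takes the place of Psmb5, read 3.33, 3.08, 3.31 and 3.46 in L1, 3.82, 3.62, 3.27, 4.86 and 3.68 in L2 and 3.30, 3.41, 3.40, 3.53 and 3.03 in L3. The L4 pups were at 3.76, 3.36, 3.28, 3.66 and 3.61. Adult rats 13 to 16 read 2.68, 3.08, 5.63 and 3.51, and old rats 5.06, 4.67, 5.06 and 4.84. All old rats were above all pups but pup 24 of L2, and adult rat 15 was above every other animal. The change in newborn minus old was -1.41 ± 0.30, with old rats at 2.65 times the newborn level and an adjusted p of 0.00023. Between adult and old rats it was -1.18 ± 0.39 with an adjusted p of 0.011, which missed the threshold. Without rat 15, it was -1.82 with an adjusted p of 1.5e-06.

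Psmb9, which takes the place of Psmb6, gave the same order. The pups were at 4.45, 4.95 and 5.70 at the lowest, median and highest, adult rats at 4.12, 4.58, 7.48 and 5.06 and old rats at 6.42, 6.19, 6.46 and 6.18. Pups and old rats did not overlap, and rat 15 again lay above all other animals while the other adults lay among or below the pups. Newborn minus old was -1.40 ± 0.32, an old to newborn ratio of 2.64, with an adjusted p of 0.00049. The change in adult minus old was -1.0 ± 0.42 with an adjusted p of 0.042, and -1.73 with an adjusted p of 9.7e-07 without rat 15. The newborn against old calls of Psmb8 and Psmb9 held in 40 of 41 alternatives, with values from -1.48 to -1.27 and from -1.46 to -1.35. They were lost only with litter means as the newborn replicates, where the adjusted p was 0.020 and 0.034. Within the shared scan day, L1 minus old was -1.61 ± 0.39 for Psmb8 and -1.59 ± 0.42 for Psmb9, with adjusted p of 0.00095 and 0.0021.

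Psmb10, which takes the place of Psmb7, did not separate newborn from old rats. It read 5.48, 5.52, 5.42 and 5.61 in L1 and 6.26, 6.32, 6.23, 7.10 and 6.31 in L2. The pups of L3 read 6.07 to 6.53 and those of L4 5.90 to 6.46, whereas adult rats read 5.54, 5.65, 7.10 and 6.14 and old rats 5.79, 5.77, 5.83 and 5.79. The old rats lay between L1 and the other litters, and the highest values were those of pup 24 and rat 15. Newborn minus old was 0.29 ± 0.18 (adjusted p 0.15), adult minus old 0.31 ± 0.23 (adjusted p 0.25) and newborn minus adult -0.02 ± 0.18 (adjusted p 0.92). With quantile normalization the adult minus old change of Psmb10 was 0.71 and called (adjusted p 0.0062), and it was -0.02 without rat 15. None of the 3 inducible subunits was called between newborn and adult rats. Without rat 15, that change turned from -0.22 to 0.41 for Psmb8, from -0.40 to 0.32 for Psmb9 and from -0.02 to 0.31 for Psmb10, none of them called, with adjusted p of 0.068, 0.12 and 0.055.

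**Figure D3:**
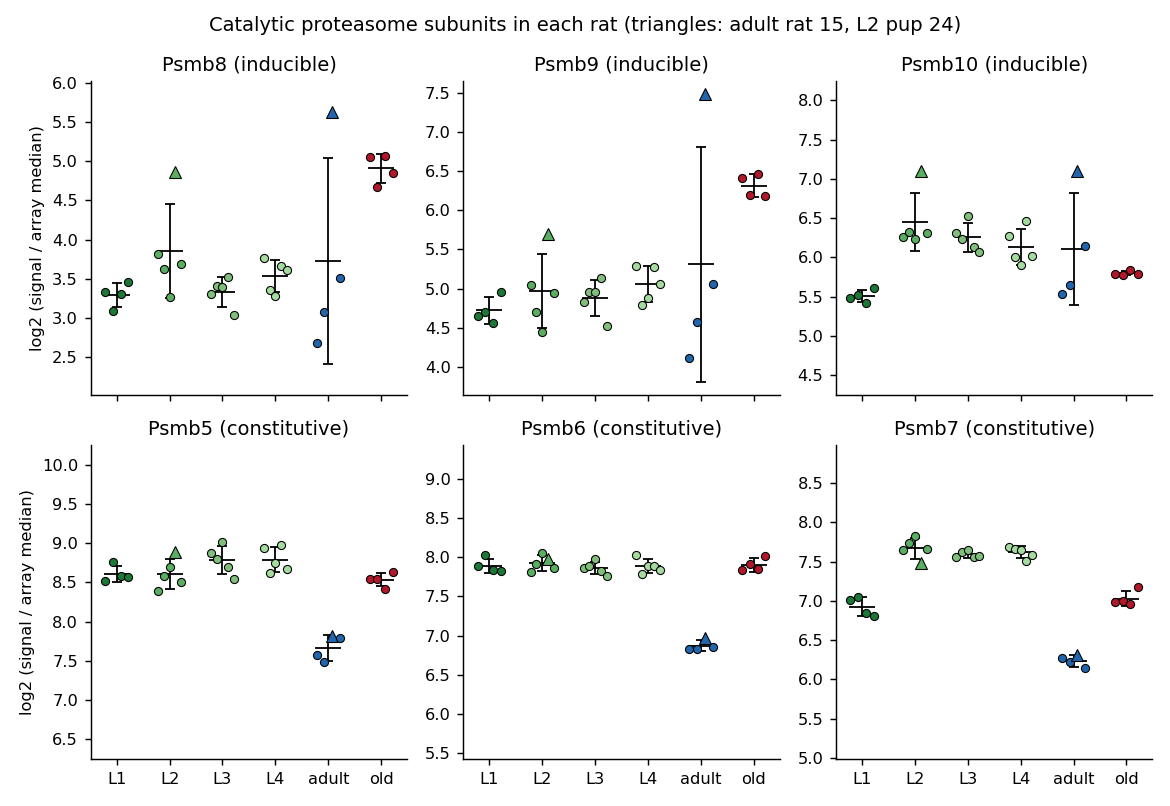
Level of the 6 catalytic subunits in each of the 27 rats, as the log2 of signal over the array median, by litter and age; points are rats, bars are the group mean and SD, triangles are adult rat 15 and pup 24 of L2, and each panel spans the same number of log2 units. Adult rats lie below all others at Psmb5, Psmb6 and Psmb7, whereas rat 15 is the highest animal at Psmb8 (5.63) and Psmb9 (7.48).

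The probes of these subunits lie, in build rn3 of the array files, at chr20:4788207-4788266 for Psmb8 and chr20:4806568-4806627 for Psmb9, close neighbours in the major histocompatibility complex, and at chr19:35782592-35782651 for Psmb10. Those of the constitutive partners lie at chr15:32705834-32705893 for Psmb5, chr10:57384991-57385050 for Psmb6 and chr3:18309603-18329477 for Psmb7, whose probe spans an intron. The promoters of the 6 genes and of Psme2 are shown as a description, since the inducible and the constitutive subunits were compared. Each runs from 100 bases before to 20 bases after the start of the gene in RefSeq build GRCr8, 5′ to 3′ along the gene. Capitals mark 2 short patterns searched on both strands. GAAANNGAA is a loose form of the element bound by interferon-regulated factors, and TGACNNNGC a loose form of the antioxidant response element bound by Nfe2l1 and Nfe2l2. The windows are chr20:4657012-4657131 (minus strand) for Psmb8, chr20:4668900-4669019 (plus) for Psmb9, chr19:50743273-50743392 (minus) for Psmb10, chr15:33052732-33052851 (minus) for Psme2, chr15:32047360-32047479 (minus) for Psmb5, chr10:55737788-55737907 (plus) for Psmb6 and chr3:42827451-42827570 (minus) for Psmb7.
Psmb8: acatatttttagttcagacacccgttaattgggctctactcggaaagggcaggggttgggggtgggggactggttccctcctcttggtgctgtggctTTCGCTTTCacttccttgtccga
Psmb9: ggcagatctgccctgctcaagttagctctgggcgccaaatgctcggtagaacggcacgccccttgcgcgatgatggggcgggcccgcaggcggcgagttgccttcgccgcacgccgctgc
Psmb10: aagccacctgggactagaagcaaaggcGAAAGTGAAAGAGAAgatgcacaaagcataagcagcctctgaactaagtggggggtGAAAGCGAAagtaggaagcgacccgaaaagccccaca
Psme2: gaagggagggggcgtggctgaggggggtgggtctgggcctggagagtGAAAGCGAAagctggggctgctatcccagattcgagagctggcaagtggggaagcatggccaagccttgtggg
Psmb5: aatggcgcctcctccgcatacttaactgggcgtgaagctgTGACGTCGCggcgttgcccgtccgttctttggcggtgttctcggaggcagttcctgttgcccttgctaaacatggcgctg
Psmb6: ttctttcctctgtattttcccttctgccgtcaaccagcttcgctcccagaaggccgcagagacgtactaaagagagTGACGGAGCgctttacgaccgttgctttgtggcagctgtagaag
Psmb7: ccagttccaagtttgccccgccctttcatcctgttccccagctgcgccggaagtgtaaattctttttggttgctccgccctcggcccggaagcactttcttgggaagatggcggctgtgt

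The interferon-type pattern occurred 1 time in Psmb8, on the opposite strand across the start, 3 times in Psmb10, where the first 2 overlap, and 1 time in Psme2. Its letters are not in the windows of Psmb9, Psmb5, Psmb6 or Psmb7. The antioxidant-type pattern occurred in Psmb5 and Psmb6. In the full promoters of 300 bases, from 250 before to 50 after the start, the interferon-type pattern was in 8 of the 38 member genes with an entry and in 9.71% of 33469 promoters, and the antioxidant-type pattern in 8 of 38 and in 12.1%. These matches are descriptions of letters and not of binding. Psma3l, Psma7, Psmd12 and Psmd6 had no promoter entry.

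The difference between an inducible subunit and the constitutive subunit it replaces was taken within each array, so that division by the array median or another constant drops out, though quantile normalization does not. It shows unequal change and not which subunit has more RNA. Psmb8 minus Psmb5 was -5.19 ± 0.30 (SD) over the 4 litter means, -4.89, -4.40, -2.19 and -4.28 in the adult rats, and -3.49, -3.87, -3.36 and -3.78 in the old rats. Litters and old rats did not overlap, and rat 15 lay above all other animals. The litter means lay below the old rats, with a difference of -1.57 (exact permutation p 0.0286, two-sided). Psmb9 minus Psmb6 was -2.98 ± 0.14 over the litters, -2.71, -2.25, 0.51 and -1.79 in adult and -1.42, -1.73, -1.39 and -1.84 in old rats. The litter means were below both, by differences of -1.42 against adult and -1.39 against old rats, each with an exact p of 0.0286. For Psmb10 minus Psmb7 the litters were at -1.37 ± 0.11, the adult rats at -0.73, -0.57, 0.78 and -0.0024 and the old rats at -1.20, -1.22, -1.12 and -1.38. There the adult rats were the highest, with a difference of -1.24 in newborn minus adult and of 1.1 in adult minus old, both with an exact p of 0.0286. That p is the smallest that 4 values against 4 can give. After adjustment over the 9 tests it was 0.0514, so none of the 9 passed a threshold of 0.05. Without pup 24, 6 of them stood at 0.0429. Without rat 15, the newborn minus adult differences shrank to -0.67 for Psmb8 minus Psmb5, -0.73 for Psmb9 minus Psmb6 and -0.93 for Psmb10 minus Psmb7. In the other 4 tests the exact p was 0.0571 to 0.971, the lowest of them that of Psmb8 minus Psmb5 in newborn against adult rats (difference -1.25). Among single pups, pup 24 at -0.38 lay above 2 of the adult rats for Psmb10 minus Psmb7. For Psmb9 minus Psmb6, pups 24, 34 and 29, at -2.28, -2.61 and -2.69, lay above adult rat 13. Both separations from adult rats are therefore of litter means and not of single pups.

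The activators open the core without ubiquitin. Psme1 and Psme2, the alpha and beta chains of the interferon-inducible 11S ring, were both called higher in newborn than in adult rats. Psme1 read 6.66, 7.14 and 7.49 at the lowest, median and highest pup, 6.21, 6.27, 7.01 and 6.65 in adult rats and 7.08, 7.09, 7.04 and 7.10 in old rats. Psme2 read 6.66, 6.90 and 7.24 in pups, 5.57, 5.76, 6.84 and 6.29 in adult rats and 6.74, 6.68, 6.77 and 6.78 in old rats. At both genes rat 15 lay within the range of the pups and the other 3 adults below every pup. Newborn minus adult was 0.56 ± 0.11 for Psme1 and 0.80 ± 0.14 for Psme2 (adjusted p 6.3e-05 and 1.0e-05). Adult minus old was -0.54 ± 0.14 and -0.62 ± 0.17 (adjusted p 0.0019 and 0.0036), called in 33 of 41 alternatives each. These 2 calls were lost without adult rat 13 or 14, with adjusted p up to 0.013 and 0.025. With quantile normalization Psme1 was at 0.13 in newborn minus adult (adjusted p 0.16), and after normexp correction Psme2 was at 0.26 (adjusted p 0.10). Neither differed by call between newborn and old rats (0.02 ± 0.11 and 0.18 ± 0.14).

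Psme3, the nuclear 11S activator, and Psme4, a single-chain activator linked to histone turnover, had a pattern of their own. Psme3 was 0.38 ± 0.06 higher in newborn and 0.45 ± 0.07 higher in adult than in old rats (adjusted p 3.5e-06 and 1.6e-05), and newborn minus adult was -0.07 ± 0.06 (adjusted p 0.25), which became a call at -0.40 with quantile normalization. Its adult rats read 5.11, 5.00, 5.20 and 5.21 and its old rats 4.61, 4.66, 4.64 and 4.79, with no overlap. The litter means were 4.78 in L1 and 4.75 in L2, near the old rats, and 5.31 in L3 and 5.37 in L4. With litter means as replicates the newborn and adult calls against old rats were lost, with adjusted p of 0.033 and 0.014. Both probes of Psme4 were called higher in newborn than in old rats, at 0.66 ± 0.09 and 0.53 ± 0.13. Only 1 of them was called against adult rats, at 0.55 ± 0.09 against 0.09 ± 0.13.

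The 6 ATPases of the 19S base, which unfold the substrate, moved less as a group. Their direction against adult rats depended on the scaling. Of their 8 probes, 4 were called higher in newborn than in adult rats, those of Psmc1 (0.52 ± 0.06), Psmc2 (0.50 ± 0.06), Psmc3 (0.91 ± 0.06) and Psmc5 (0.58 ± 0.07), and the same 4 were called lower in adult than in old rats. With quantile normalization 1 of the 8 was called higher and 7 lower in newborn minus adult, and 6 higher and 1 lower in adult minus old, with medians that turned from 0.25 to -0.32 and from -0.23 to 0.34. Both probes of Psmc4 were not called in any of the 3 comparisons, with changes from -0.08 to 0.04. Both probes of Psmc6 were called higher in newborn than in old rats, at 0.34 ± 0.09 and 0.59 ± 0.07, and 1 of them was 0.73 ± 0.09 higher in adult than in old rats (adjusted p 3.5e-07). Its adult rats read 6.52, 6.61, 6.85 and 6.72 and its old rats 5.77, 5.89, 6.01 and 6.13. These do not overlap, and the order of adult and old rats is the opposite of that at Psmc3.

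Among the other 19S subunits, which receive ubiquitinated proteins and cut off the chain, 12 of 14 probes were called higher in newborn than in adult rats and 10 of 14 lower in adult than in old rats. With quantile normalization 8 were called higher and 2 lower in the first comparison, and 4 lower and 3 higher in the second. The rises over adult rats included Psmd1 (1.01 ± 0.07 and 0.50 ± 0.06 at its probes), Psmd13 (0.90 ± 0.08), Psmd4, a ubiquitin receptor (0.82 ± 0.07), Psmd12 (0.79 ± 0.05) and Psmd11 (0.69 ± 0.06). Against old rats, 5 probes were called higher in newborn rats and 1 lower, Psmd8, at -0.22 ± 0.06 (adjusted p 0.0021). The call of Psmd8 was lost without old rat 18 or 20. With quantile normalization its newborn minus adult change turned from 0.34 ± 0.06 to -0.09.

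Psmd6, of the 19S lid, behaved like Psma2. It read 0.35, -0.30, -0.68 and -0.92 in L1. The ranges were 2.33 to 2.57 for L2, 2.03 to 2.35 for L3 and 1.77 to 2.03 for L4. Adult rats read 2.30, 2.20, 1.53 and 1.43 and old rats 0.38, -0.18, 0.59 and 0.10. L1 lay near or below the old rats, and the adult rats above both, with 2 of them among the other litters and 2 below these, again split by slide and scan day. The change was 1.31 ± 0.16 in newborn minus old and 1.64 ± 0.21 in adult minus old, the largest of any member there, with adjusted p of 1.8e-07 and 4.8e-07. With litter means as replicates the adjusted p were 0.035 and 0.011, and both calls were lost. In L1 minus old it was -0.61 ± 0.21, with an adjusted p of 0.016.

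The chaperones that help to build the 19S base, Psmd5, Psmd9 and Psmd10, went different ways. Psmd9 read 6.48, 6.75 and 7.20 at the lowest, median and highest pup, 5.39, 5.34, 5.51 and 5.55 in adult rats and 5.84, 5.92, 5.92 and 5.99 in old rats, so that the 3 ages did not overlap. It was 1.30 ± 0.08 higher in newborn than in adult rats and 0.83 ± 0.08 higher than in old rats (adjusted p 1.7e-13 and 9.4e-10), and both were called in all 41 alternatives. Its adult minus old change of -0.47 ± 0.10 (adjusted p 0.00025) turned to 0.02 after normexp correction. Psmd10, also known as gankyrin, was 0.44 ± 0.07 higher in newborn than in adult rats but -0.31 ± 0.07 in newborn minus old, a call in the other direction (adjusted p 0.00025). The latter was lost with litter means as replicates (adjusted p 0.040) and with the methods' t-test on rats (adjusted p 0.050). Litter means of Psmd10 were 4.98, 5.18, 5.50 and 5.49 in L1 to L4. After normexp correction its newborn minus adult change was 0.09 and not called (adjusted p 0.020). Psmd5 was not called in any of the 3 comparisons, at 0.12, -0.16 and -0.28.

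Probes of 1 gene did not always give the same value. Of the 7 genes with several probes, Psmd7, a lid subunit, disagreed in direction, with 1 probe at -0.96 ± 0.09 and another at 0.61 ± 0.12 in adult minus old, both called. The first read 6.73, 6.61, 6.82 and 6.54 in adult and 7.57, 7.67, 7.55 and 7.74 in old rats, and the second 4.37, 4.16, 3.83 and 3.80 against 3.47, 3.36, 3.45 and 3.44. The remaining probe was not called, at -0.09. Psma6 (0.53 and 1.28) and Psmd1 (0.50 and 1.01) differed in size in newborn minus adult, and only 1 probe of each was called in adult minus old.

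One adult rat and one pup stood apart at the immunoproteasome. They were singled out after their values were seen, and no test is given. Rat 15 exceeded the mean of the other 3 adults by 2.90 at Psmb9, 2.54 at Psmb8 and 1.32 at Psmb10, which are the first 3 of the 50 members, followed by Psme2 (0.97) and Psme1 (0.64). The median of the members was 0.16 and that of all probes 0.09, and 0.0465%, 0.110% and 0.604% of all probes had a larger excess than Psmb9, Psmb8 and Psmb10. Both sides of its nose showed it, with 7.50 and 7.46 at Psmb9. Pup 24 exceeded the mean of the other 4 pups of L2 by 1.26 at Psmb8, 0.92 at Psmb9 and 0.82 at Psmb10, again the first 3 members, with Psme2 next (0.46), then Psmd9 (0.40) and Psme1 (0.36). Larger excesses were more common in this pup, at 1.97%, 4.16% and 5.08% of all probes against Psmb8, Psmb9 and Psmb10. Pup 24 was hybridized to slide 10 and scanned on day 5, whereas the other pups of L2 were on slide 6 and day 4, so that its excess over them cannot be told apart from slide and scan day. Rat 15 shared its slide and scan day with rat 16, which read 3.51, 5.06 and 6.14 at Psmb8, Psmb9 and Psmb10. Rats 13 and 14, on slide 2 and day 2, lay below rat 16 at these probes. They read 2.68 and 3.08 at Psmb8, 4.12 and 4.58 at Psmb9 and 5.54 and 5.65 at Psmb10. Part of the excess of rat 15 over the other adults therefore cannot be told apart from slide and scan day. At the constitutive partners Psmb5, Psmb6 and Psmb7, rat 15 exceeded the other adults by 0.20, 0.14 and 0.11.

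**Figure D4:**
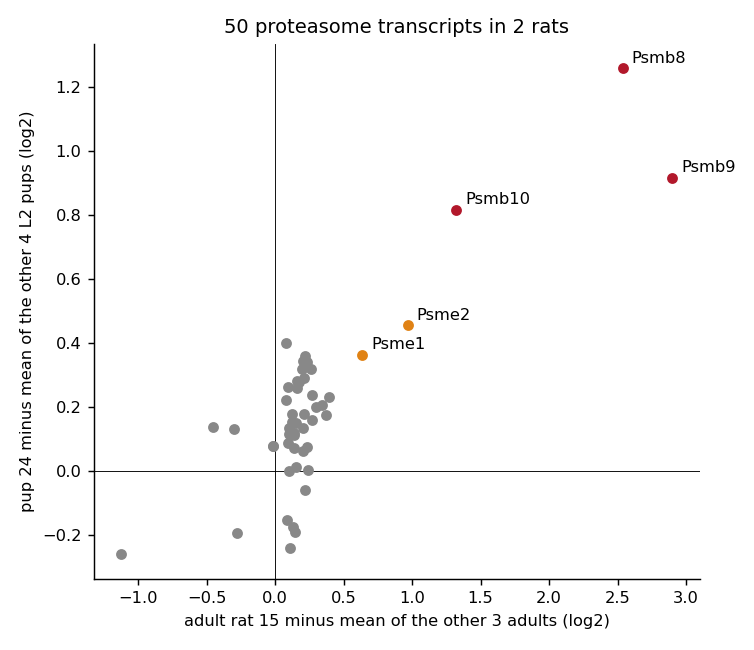
Excess of adult rat 15 over the mean of the other 3 adults (horizontal axis) and of pup 24 over the mean of the other 4 pups of L2 (vertical axis), in log2 units, with 1 point for each of the 50 proteasome probes. The inducible subunits Psmb8, Psmb9 and Psmb10 (red) and the 11S activators Psme1 and Psme2 (orange) lie toward the upper right, with Psmb9 at 2.90 and 0.92.

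Other genes moved with these subunits. All 14 measured genes of class I antigen processing were highest in rat 15 among adults, as were 9 of 10 interferon regulators and 8 of 10 leukocyte markers tested. Rat 15 was the highest adult at 39 of the 50 members and at 36.7% of all probes. Tap1, a chain of the peptide transporter, read 5.39 in rat 15 and 2.57, 2.73 and 2.98 in the other adults. Leukocyte markers, summed over 15 genes as ratios to the array median, were 470 to 928 in pups, 445 to 1125 in adult rats and 912 to 1150 in old rats. Rat 15 had the 1125, and the other adults 445 to 718. Pup 24 had the 928, with at most 698 in the rest of L2. Such a sum weighs bright genes most. Of the 10 leukocyte markers tested, 4 were called lower and 1 higher in newborn than in old rats. Those shares were 31.5% and 28.4% over all probes. The median change of the 10 was -0.10, against -0.03 over all probes. Cd74 had the largest change, -3.33, and read 9.27 in rat 15 and at most 8.29 in the other adults. Cd68, at 1.75, was the marker called higher, and Coro1a and Tyrobp were not called, at 0.04 and 0.18. The part of leukocytes in the levels of Psmb8 and Psmb9 was not tested.

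The class I list was called lower in newborn than in old rats at 10 of 14 genes and higher at 1, Calr, a chaperone of the endoplasmic reticulum, with a median change of -1.16. Of all probes, 31.5% were called lower and 28.4% higher there. Psmb8 and Psmb9 are not counted in the list. Tap1 was at -1.19, Tap2 at -1.47, Tapbp, which bridges transporter and class I molecule, at -1.78 and B2m, the light chain of class I molecules, at -0.79, all called. In newborn minus adult, B2m was 0.66 higher and Tapbp -1.30, both called, but B2m turned to -0.07 with quantile normalization and lost its call without adult rat 13 (0.49, adjusted p 0.013). Of 10 interferon regulators tested, 7 were called lower in newborn than in old rats, against 31.5% of all probes, with Irf1 at -1.29. Ifng, interferon gamma itself, was not tested, since it was above background on only 2 arrays, those of rat 15. Its level was -1.48 in rat 15, and the other adults were at the floor of -6.64.

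The genes with a symbol most like Psmb8 across the 27 rats were Psmb9 (Pearson r 0.964), Ltb (0.940), Irf7 (0.937), Tap2 (0.923) and Tap1 (0.919). They came from 28806 probes detected in at least 1 group, after probes named only by an identifier and repeat probes of a symbol were passed over. The genes most like Psmb9 by the same rule were Psmb8, Tap1 (0.928), Irf7 (0.919), Casp1 (0.917) and Ccl5 (0.909). Within the 19 pups alone r between Psmb8 and Psmb9 was 0.838, and without rat 15 and pup 24 it was 0.971. Psmb10 had other neighbours: Ccl20 (0.860), Pdcd2 (0.855), Cldn4 (0.844), Ifi44 (0.844) and Scamp2 (0.843). The r of Psmb10 with Psmb8 was 0.395, and it was -0.002 without rat 15 and pup 24. Within the 19 pups, r of Psmb10 was 0.699 with Psmb8 and 0.637 with Psmb9. With their constitutive partners, r was 0.003 for Psmb8 and Psmb5, -0.016 for Psmb9 and Psmb6 and 0.327 for Psmb10 and Psmb7. For these pairs, r was 0.190, 0.141 and 0.688 within the 19 pups. It was 0.171, 0.300 and 0.669 without rat 15 and pup 24. These are descriptions over rats of different ages, litters and scan days, in which values of an array share its scaling.

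The litters also differed. Of the 50 members, 31 were called among the 4 litters, where 37.9% of all probes were called. L1 had the lowest mean of the litters at 44 members, against 49.1% of all probes. L2 had the highest mean at 25 of the 31 called, but the matching share over all called probes was not taken. The range of litter means was 3.84 for Psma2 and 2.84 for Psmd6. Of the catalytic subunits, Psmb7 (adjusted p 3.2e-08) and Psmb10 (adjusted p 0.0056) were called among litters and Psmb5, Psmb6, Psmb8 and Psmb9 were not, with adjusted p of 0.18 to 0.87. Litter and scan day cannot be told apart for L1 against the others.

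**Figure D5:**
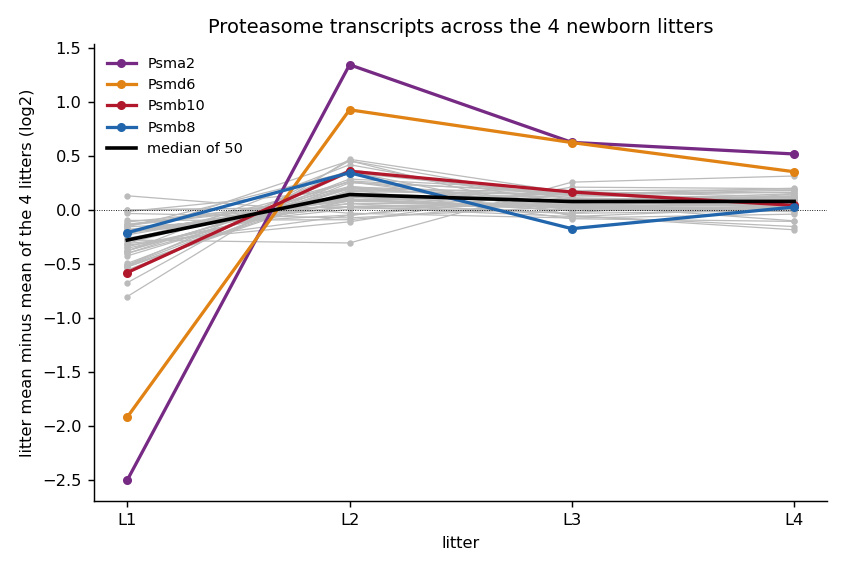
Mean level of each of the 50 proteasome probes in each newborn litter, minus the mean of the 4 litters, in log2 units; gray lines are probes, coloured lines are the 4 genes named, and the black line is the median of the 50. L1 is the lowest litter at 44 probes, and Psma2 and Psmd6 span 3.84 and 2.84 between litters.

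The pups of L1 and the old rats were scanned on the same day, which gives an age comparison within it. There, 2 members were called higher and 9 lower in L1 than in old rats, against 17.9% and 30.6% of all probes, with a median change of -0.11 over the members and -0.14 over all probes. Those higher were Psmd9 (0.62 ± 0.10) and 1 probe of Psme4 (0.51 ± 0.11). Those lower included Psmb8, Psmb9, Psmd10 (-0.62 ± 0.09), Psmc5 (-0.37 ± 0.09) and both probes of Psmc4 (-0.33 ± 0.08 and -0.31 ± 0.09). No probe of the alpha ring was called. The 9 lower became 5 without L1 pup 11, without L1 pup 12 or without old rat 20. With quantile normalization the calls were 12 higher and 4 lower, against 23.0% and 28.8% of all probes. Psmb5, Psmb6 and Psmb7 were at 0.07, -0.01 and -0.10 in this comparison, with adjusted p of 0.61, 0.90 and 0.26.

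Genes that feed the proteasome or set its amount were taken from a list of ubiquitin genes and partners, of which 19 were tested. In newborn minus adult, 12 were called higher and 3 lower, against 39.7% and 26.7% of all probes. In newborn minus old the counts were 6 and 5, against 28.4% and 31.5%. In adult minus old they were 1 and 9, against 15.9% and 31.4%. With quantile normalization the adult minus old counts became 8 and 5, against 22.9% and 22.6% of all probes. The newborn minus adult counts became 9 and 8, against 31.6% and 35.2%. Nfe2l1, the transcription factor known to raise proteasome genes when degradation falls short, was lower in newborn rats, at -1.05 against adult and -0.93 against old rats. Nfe2l2, its antioxidant relative, was at -1.13 and -0.79, also called. Ubb, a polyubiquitin gene, was 0.75 higher in newborn than in adult rats and -0.30 against old rats, both called, though the latter was lost with quantile normalization (-0.15, adjusted p 0.016). Rps27a, which encodes ubiquitin fused to a ribosomal protein, was 1.42 higher in newborn rats than in adults and 1.44 higher than in old rats, both called. No probe was named for Pomp, the chaperone of core assembly.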

How the data were processed

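RNA of olfactory epithelium was labelled with Cy3 and hybridized to 35 Agilent whole rat genome arrays, 1 for each of 19 pups and 2 (1 for each side) for each of 4 adult and 4 old rats. Per the file headers, the authors' scans were turned into the deposited background-subtracted intensities by Feature Extraction 9.5.1.1 (adult arrays) or 9.5.3.1 (all others), with probe positions on build rn3. The authors also deposited a matrix of ratios of intensity to the array median, in which negative intensities had been set to 0.01. It matched the array files and served as an alternative. Sources for both were the file headers and the study's methods.

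From the 45018 spots of an array, control spots and outlier spots (4189 values on 732 probes) were left out, spots of a probe were averaged to 41012 probes, and the intensities were divided by the array median, floored at 0.01 and put on the log2 scale. The 2 arrays of a rat were then averaged. One adult array lacked a value for 1 member, and the other array of that rat stood for it. Probes were tested where at least 3 arrays of each litter and 6 of the 8 arrays of adult and of old rats were above background, which left 23668. Changes were fitted with limma 3.58.1 (R 4.3.3, lmFit and eBayes) over the 6 groups, with newborn as the mean of the 4 litters, and p-values were adjusted by Benjamini and Hochberg. Differences between catalytic subunits were compared by two-sided exact permutation tests (Python 3.11.15, scipy 1.17.1) on litter means and rats. The fit was tested on simulated data with 200 changed probes.

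The members and lists were chosen with earlier results of these data known. The genes named were the catalytic subunits and activators, and the 4 members with the largest called change in each direction of each age comparison. Also named were the 5 genes with a symbol most correlated with each inducible subunit. From the lists of class I antigen processing, interferon regulators and ubiquitin partners came Tap1, Tap2, Tapbp, B2m, Irf1, Pomp, Nfe2l1, Nfe2l2 and Ubb. Other members and list genes, such as Rps27a and Calr, were named after their values were seen. A few genes of the rule and lists are not reported here. Marker lists covered leukocytes, olfactory neurons, sustentacular, basal, dividing and red cells and muscle. Promoters came from RefSeq (GRCr8), and 37 members were matched to RefSeq by accession. Replicates were separate rats. The number of rats limits the precision. Alternatives were the 75th percentile, quantile normalization without and with normexp correction (offset 50), the authors' matrix, filters, blocks for rat, slide and scan day, litter means, only the groups compared, the methods' t-test, and each rat left out. Leaving out adult rat 15 and pup 24 together was chosen after seeing the data.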

Additional observations from a re-analysis of the deposited data

Results flagged for a closer look

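In 14 of 258 groups of 4 or 5 rats, 1 animal lay farther from the others than Dixon's critical value allows, where chance gives about 1 in 20.

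Pup 24 was the highest of L2 in 9 of them. It read 7.10 at Psmb10 (next 6.32), 7.24 at Psme2 (next 6.82), 7.20 at Psmd9 (next 6.84), 8.05 at 1 probe of Psmd7 (next 7.80), 9.94 at B2m (next 9.17), 3.58 at Irf1 (next 2.57), 3.86 at Irf7 (next 3.31) and 5.75 at Ccl20 (next 2.23). Its difference of Psmb10 minus Psmb7, -0.38, was also the highest of L2 (next -1.35). Adult rat 15 was the highest adult at Psma7 (7.97, next 7.76), Tap1 (5.39, next 2.98) and Irf7 (5.01, next 2.74).

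The other 2 were old rat 17, the lowest old rat at 1 probe of Psma6 (9.21, next 9.37), and L4 pup 33, the lowest of its litter at Ltb (2.96, next 3.71).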

How the results depend on the processing

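Scaling moved the counts of members. In newborn against adult rats, the members called lower went from 0 to 5 with the 75th percentile, 11 with quantile normalization, 10 with normexp and quantile, 1 with arrays blocked by rat and 1 without rat 15 and pup 24. Of all probes, 33.3% were called lower with the 75th percentile, 35.2% with quantile normalization and 34.4% with normexp and quantile. Arrays blocked by rat gave 27.7%. In adult against old rats, 15 were higher and 15 lower with quantile normalization, 13 and 16 with normexp, and 1 was higher with litter means. The shares of all probes were 22.9% and 22.6%, 22.5% and 23.5%, and 14.3%. In newborn against old rats, litter means left 11 higher and 0 lower, and the methods' t-test on rats 11 higher. Of all probes, litter means left 20.9% higher and 25.6% lower, and the t-test 22.2% higher. In L1 against old rats, 6 were higher with the 75th percentile, 12 higher and 4 lower with quantile normalization, 13 and 5 with normexp, and 3 lower with the slide as a block. The shares of all probes were 21.5%, 23.0% and 28.8%, 22.1% and 27.9%, and 23.1%, in the same order.

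Signs turned for these single values. In newborn minus adult, Psmb10 was at 0.033 with scan day as a block, 0.0012 with slide, 0.010 with the methods' t-test on arrays and on rats, and 0.27 without rat 15 and pup 24, where Psmb8 was at 0.35 and Psmb9 at 0.28. Psmd8 was at -0.089 and B2m at -0.065 with quantile normalization and Psme4 at -0.041 at 1 probe with the 75th percentile. In newborn minus old, Psme1 was at -0.036 with the 75th percentile and -0.00035 without rat 15 and pup 24, Psmb3 at -0.016 with the 75th percentile and with quantile, and Psmd7 at 0.018 with normexp. In adult minus old, Psmd9 was at 0.019 with normexp, Psmb10 at -0.023 without rat 15 and pup 24, and Psmb9 minus Psmb6 at -0.078 with quantile, -0.16 with normexp and -0.66 without both rats. The causes were not tested.

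With each rat left out in turn, 0 to 1 members were lower in newborn than in adult rats (1 without adult rat 15 or 16) and 5 to 12 lower in L1 than in old rats. Psmb8 ranged from -0.57 to 0.41, Psmb9 from -0.80 to 0.32 and Psmb10 from -0.21 to 0.31 in newborn minus adult. In adult minus old they ranged from -1.82 to -0.84, from -1.73 to -0.60 and from -0.023 to 0.50, Psme1 from -0.70 to -0.43 and Psme2 from -0.87 to -0.44. In newborn minus old, Psmb6 ranged from -0.036 to 0.026, Psme1 from -0.00035 to 0.031 and Psmd7 from -0.057 to 0.0082. The difference Psmb8 minus Psmb5 ranged from -1.57 to -0.67 in newborn minus adult, -1.65 to -1.48 in newborn minus old and -0.90 to 0.0022 in adult minus old. Psmb9 minus Psmb6 ranged from -1.80 to -0.73, -1.47 to -1.32 and -0.66 to 0.41, and Psmb10 minus Psmb7 from -1.44 to -0.93 in newborn minus adult and 0.80 to 1.30 in adult minus old. No paired analysis was possible because rats of different groups share no numbers.

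Of 93 changes of named genes, litter means lost 21 calls, and normexp lost 10 and gained 7. The newborn and adult groups differ in scan day, and a probe's signal over background, not a count, limits its precision.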
